A study of Mus musculus with 4 samples.

Results

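The caspases Casp1, Casp2, Casp4, Casp6, Casp8, Casp9 and Casp12 and the adaptor Apaf1 were examined in primary mouse chondrocytes treated with tumour necrosis factor. The 8 genes were chosen by name, and every probe whose transcript in the array files is a RefSeq transcript of one of them was taken. This gave 9 probes of 55619 kept on the arrays and 8 genes of 37042. Here and in all shares of genes below, a transcript without a matched RefSeq symbol counts as a gene of its own. Casp4 had 2 probes and each other gene had 1, and every one of these probes occupied a single spot. Casp4 was the member whose signal differed most between the arrays. It was 2.61-fold higher with TNF in control (Rela fl/fl) cells, 1.81-fold higher with TNF on the cKO-labelled arrays, and 2.16-fold lower on the cKO-labelled array than in control cells when both had TNF. The other members that were measured on every array moved by less than 1.5-fold in each of the 4 comparisons.

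Chondrocytes of 6-day-old C57BL/6J mice were cultured for 3 days with TNF-α (TNF below) at 10 ng per ml, or without it. The mice were Rela fl/fl (control), whose 2 floxed alleles both genotypes carry, or Prrx1-Cre; Rela fl/fl littermates (cKO), in which a Prrx1 promoter drives Cre in limb mesenchyme. Rela is the NF-κB subunit that is targeted. RNA of each of the 4 combinations was hybridised to 1 single-colour Agilent array, so there is no replicate of any condition, and no test between conditions was run. How many animals or cultures fed each array is not given in the sources used here.

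The unit below is the signal, the processed intensity of a spot divided by the 75th percentile of the transcript spots on its array. A signal of 1 is thus the 75th percentile, which was 589 to 633 intensity units. The spread quoted beside a difference is the SD that a difference between 2 single spots of like level would have. Each array carries 399 probes 10 times, and the SD was pooled over the 173 to 215 of them whose 10 spots were all well above background and free of outlier flags. It was about 0.24 on the log2 scale below a signal of 0.5, 0.11 from 0.5 to 2 and 0.081 above 2. It covers variation between spots within an array, and neither cultures nor hybridisations. Signals depend on the probe as well as the transcript, so no gene's level is read against that of another, and the sums over marker lists given further down rest mostly on their brightest probes.

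The arrays had features that bear on every comparison of the genotype labels. The signal of Rela itself was 28.4 and 34.9 in control cells without and with TNF, and 34.0 and 40.2 on the cKO-labelled arrays. It was not lower on the latter, and where its probe lies relative to the floxed part is not given in the sources used here, so these arrays are called by their label, the cKO-labelled arrays. Xist, the RNA of the inactive X chromosome, was looked at after values had been seen. It had signals of 0.719 and 0.755 in control cells and was not well above background on either cKO-labelled array, while the Y-linked Eif2s3y was higher on those by 1.81 and 1.83 on the log2 scale. Eif2s3y was also well above background in control cells, at 1.78 and 1.84, as was the Y-linked Ddx3y, at 1.31 and 1.30, so the control arrays carried both Xist and Y-linked signal. Genotype label and the share of cells of each sex cannot be told apart here. Groups of neighbouring spots that were bright on 1 array alone (patches below) held 1.04% to 10.7% of the spots of an array.

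Caspases are cysteine proteases that cut their substrates after aspartate and are made as inactive precursors. Initiator caspases are activated by binding to a scaffold: caspase-8 at death receptors such as the TNF receptor complex, and caspase-9 on the apoptosome, a ring of Apaf1 molecules that forms once cytochrome c leaves the mitochondria. Executioner caspases are cut by initiators and take the cell apart. Inflammatory caspases, of which Casp1, Casp4 and Casp12 lie next to each other in the mouse genome, are activated at inflammasomes or by bacterial lipopolysaccharide and act on cytokine precursors and gasdermins. Most of this control acts on the proteins, which an RNA array does not read. NF-κB, in which Rela is a transactivating subunit, is switched on by TNF and is known to induce genes that restrain caspase-8.

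Since Casp4 was the member with the largest difference with TNF, the DNA before its start is shown with its matches to the NF-κB consensus motif, called kappaB here. The window is the 250 bases before the first of 2 RefSeq transcript starts in GRCm38.p6, chr9:5308599-5308848, plus strand. Capitals mark the matches.

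Casp4 promoter: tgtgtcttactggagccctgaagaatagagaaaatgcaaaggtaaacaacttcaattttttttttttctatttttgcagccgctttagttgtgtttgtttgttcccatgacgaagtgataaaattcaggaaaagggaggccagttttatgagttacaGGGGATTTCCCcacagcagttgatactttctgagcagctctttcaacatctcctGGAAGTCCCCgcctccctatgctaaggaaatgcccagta

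The consensus matched at 4 registers on the 2 strands, which overlap to form 2 separate places, 93 to 83 and 39 to 30 bases before the start. The stretch GGGGATTTCCC holds 3 of the registers, and GGAAGTCCCC holds 1, on the minus strand. A match to this motif on either strand occurred in 7.25% of 32851 promoter windows of the same length, and in at least 1 window of 8.23% of 27025 genes. Of the 8 members, each of which had a window, Casp4 was the 1 with a match. Of the 7 genes with a window in a list of known NF-κB targets given further down, 5 had one. The interferon-response motif, 2 runs of GAAA with any 2 bases between them, searched on both strands, was in 2.98% of windows and 3.46% of genes, and in 0 of the members' windows. These are matches of letters, and no binding was measured.

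Of the initiators, Casp8, the protease of the death-receptor complex, had signals of 1.83 and 2.003 in control cells without and with TNF and of 2.18 and 2.21 on the cKO-labelled arrays. The 4 values lay close together, with the lowest in untreated control cells. Its log2 difference with TNF was 0.13 (spread 0.11) in control cells and 0.02 (spread 0.081) on the cKO-labelled arrays, and the sign of the latter turned with the scaling of the arrays. Between the labels it was 0.25 (spread 0.11) without TNF and 0.14 (spread 0.080) with TNF.

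Casp9, the initiator of the mitochondrial route, had signals of 3.03 and 3.13 in control cells without and with TNF and of 3.04 and 3.76 on the cKO-labelled arrays. The cKO-labelled array with TNF was the highest, and the other three were nearly equal. TNF gave a log2 difference of 0.05 in control cells and 0.31 on the cKO-labelled arrays, each with a spread of 0.081. The second exceeded the spot spread and was below 1.5-fold, and the difference between these 2 TNF responses was 0.26 (spread 0.11). Over the scalings tried, the TNF difference on the cKO-labelled arrays ran from 0.20 to 0.54 and that between the responses from 0.15 to 0.38. Between the labels, the log2 difference was 0.00 without TNF, with a sign that turned with the scaling, and 0.26 with TNF.

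Apaf1, the scaffold on which caspase-9 is activated, had signals of 0.403 and 0.482 in control cells without and with TNF. On the cKO-labelled arrays they were 0.468 and 0.414. Its log2 differences with TNF were 0.26 and -0.18 in control cells and on the cKO-labelled arrays, and those between the labels were 0.22 without and -0.22 with TNF. At this level the spread was 0.23 to 0.24, so that none of the 4 exceeded 2 spreads, and the -0.18 turned sign with the scaling.

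Casp2, an initiator activated on a scaffold with Pidd1 and Cradd, had signals of 5.63 and 5.63 in control cells without and with TNF and of 4.97 and 5.31 on the cKO-labelled arrays. It had the narrowest range of the members. Its TNF differences were 0.00 and 0.10, both of which turned sign with the scaling, and those between the labels were -0.18 without and -0.09 with TNF, on the log2 scale with spreads of 0.080 to 0.082.

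Casp6, the executioner among the members and a protease of lamins, had signals of 3.07 and 3.78 in control cells without and with TNF and of 3.43 and 3.44 on the cKO-labelled arrays. The lowest and the highest value were both from control cells. With TNF its log2 difference was 0.30 (spread 0.081) in control cells and 0.00 on the cKO-labelled arrays, where the sign turned with the scaling. The TNF response on the cKO-labelled arrays minus that in control cells was -0.30 (spread 0.11), and -0.41 to -0.18 over the scalings tried. Between the labels it differed by 0.16 without and -0.13 with TNF.

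**Figure D1:**
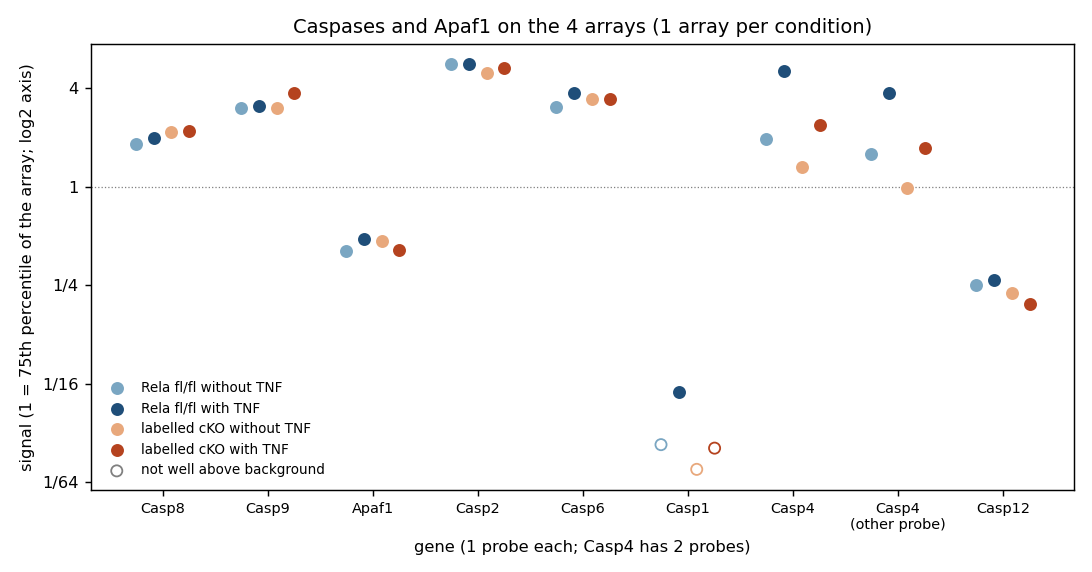
Signal of each member on the 4 arrays (log2 axis, 1 is the 75th percentile of the array), with 1 point per array and open points where the spot was not well above background. Both Casp4 probes were highest in control cells with TNF, at 5.15 and 3.73, and Casp1 was measured on that array alone.

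Of the inflammatory caspases, Casp4 encodes caspase-11, the mouse sensor of lipopolysaccharide inside the cell, which cuts gasdermin D. The probe that stands for the gene, which was in no patch on any array, had a signal of 1.97 in untreated control cells and 5.15 with TNF. On the cKO-labelled arrays it was 1.32 without TNF and 2.39 with TNF. Each array with TNF lay above both arrays without it, and for each treatment the cKO-labelled array was the lower one.

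The log2 difference of Casp4 with TNF was 1.38 (spread 0.11) in control cells and 0.86 (spread 0.099) on the cKO-labelled arrays. The second minus the first was -0.53 (spread 0.14), from 2 pairs of arrays that share none. Between the labels, Casp4 differed by -0.58 (spread 0.12) without TNF and by -1.11 (spread 0.080) with TNF. These label comparisons use the same 4 arrays as the TNF comparisons and are not separate evidence. Each of the 5 values exceeded 3 times its spot spread, and whether it exceeds the variation between cultures was not measured.

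The other Casp4 probe gave signals of 1.60 and 3.73 in control cells without and with TNF and of 0.986 and 1.72 on the cKO-labelled arrays. Its order over the arrays was that of the first probe. The log2 differences were 1.22 and 0.80 with TNF, and -0.70 and -1.12 between the labels without and with TNF. Its spot lay in a patch on both arrays without TNF. Both probes read the same transcript and RNA, and so are not independent samples.

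Casp1, the protease that matures interleukin-1β, was at the limit of detection. Its single spot had signals of 0.0265, 0.0187 and 0.0252 in control cells without TNF and on the cKO-labelled arrays without and with TNF, none of them well above background. In control cells with TNF it was 0.0553 and well above background, and that spot lay in a patch. Against the lowest signal that was well above background on the cKO-labelled array with TNF, Casp1 was at least 2.07-fold lower there than in control cells with TNF. In control cells, where the lowest such signal of the untreated array is the bound, the log2 difference with TNF was at least 0.07. With spots in patches left out Casp1 had no value at all.

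Casp12, an inflammatory-group caspase linked to the endoplasmic reticulum, had signals of 0.251 and 0.269 in control cells without and with TNF and of 0.225 and 0.192 on the cKO-labelled arrays. Its lowest value was on the cKO-labelled array with TNF, where the log2 difference between the labels was -0.49 (spread 0.24). The other differences were 0.10 and -0.23 with TNF, of which the second turned sign with the scaling, and -0.16 between the labels without TNF. None of these 3 exceeded its spread.

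**Figure D2:**
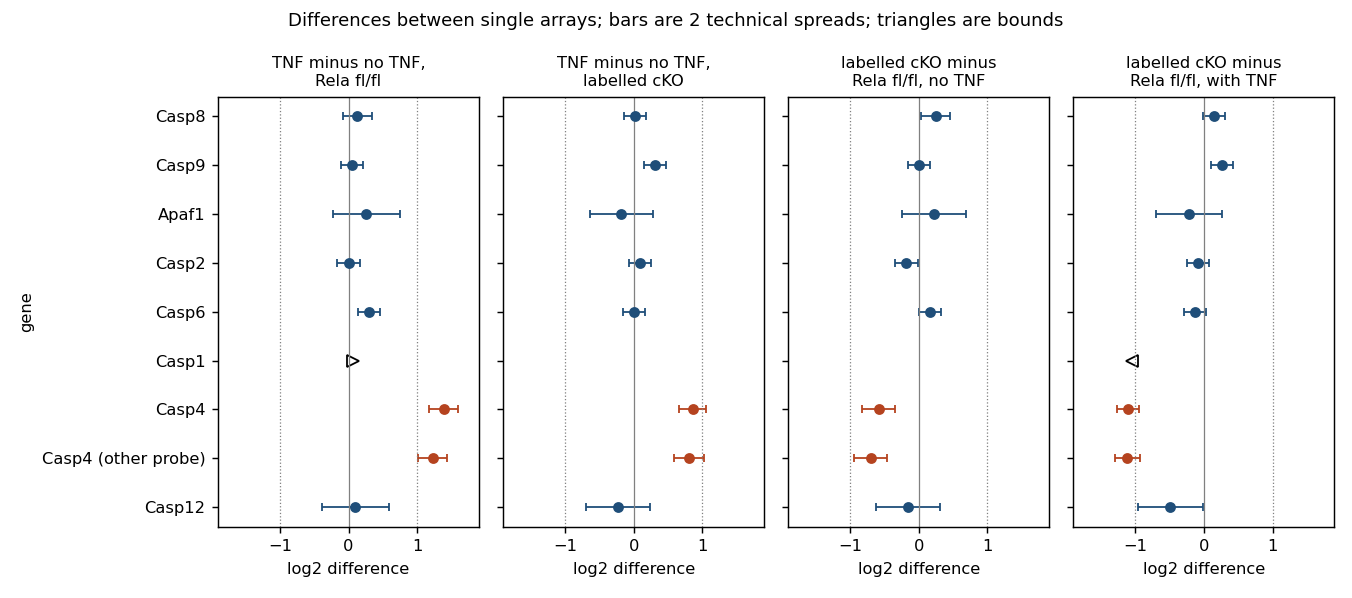
Log2 differences of every member probe in the 4 comparisons (points), with bars of 2 spot spreads either side and dotted lines at 2-fold. Triangles are bounds for Casp1, and the 2 Casp4 probes, in red, lie past the lower line for the labels with TNF, at -1.11 and -1.12.

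The comparison of TNF with no TNF in control cells asked which members respond to the cytokine. At a 2-fold limit, with the brighter array well above background, 1 of the 8 members was higher (Casp4) and 0 were lower. Of all 23408 genes tested, 2.39% were higher and 4.27% were lower. At 1.5-fold, the count of members was again 1 and 0, against 4.34% and 6.45% of all genes. The median log2 difference of the 7 members measured on both arrays was 0.13, and that of all genes tested was 0.01. A difference at least as high as that of Casp4 was found in 1.86% of the genes. With spots in patches left out, 0.588% of genes were higher and 0.707% lower at 2-fold, and Casp4 was still called.

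On the cKO-labelled arrays, 0 of the 7 members tested passed 2-fold with TNF, where 1.02% of 24903 genes were higher and 4.46% lower. At 1.5-fold Casp4 was higher and 0 were lower, against 3.69% and 8.44%. Medians were 0.02 for the members and 0.06 for all genes, a value that the scaling of the arrays moves. In this comparison 1.49% of the genes were at least as far up as Casp4.

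Between the labels without TNF, 0 of 7 members passed 2-fold in either direction, beside 3.51% of 24277 genes that were higher and 4.4% that were lower on the cKO-labelled array. At 1.5-fold the members' count was 0 as well, against 7.04% and 6.5%, and Casp4 at -0.58 fell just short of that limit. With TNF, 2 of 8 members were lower on the cKO-labelled array at 2-fold, Casp4 and, as a bound, Casp1, and 0 were higher. Casp1 passed the filter only through its spot in control cells with TNF, which lay in a patch, and so could only be lower. Among the 7 members measured on both arrays, Casp4 was the 1 called. The shares of all 24513 genes were 3.21% lower and 1.16% higher, and at 1.5-fold, where the members' count was the same, 5.75% and 4.44%. The median of those 7 members was -0.13 and that of all genes was 0.05. With patches left out, 1.07% of genes were lower and 1.07% higher at 2-fold, and Casp4 was the 1 member called.

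**Figure D3:**
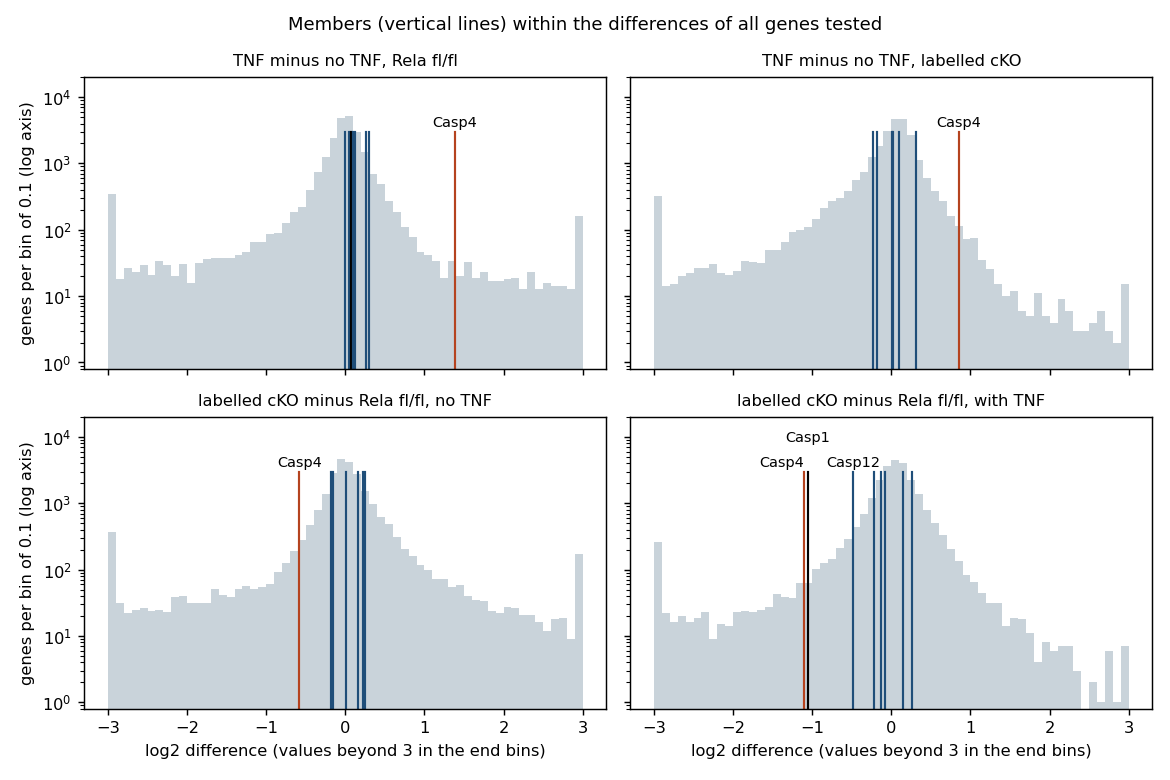
Number of genes per 0.1 of log2 difference in each comparison (log axis) with the members as vertical lines, Casp4 in red and the Casp1 bounds in black. Apart from Casp4, and from Casp1 and Casp12 between the labels with TNF, the members lie in the central part of the distribution.

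A list of 10 known NF-κB targets (Nfkbia, Tnfaip3, Nfkb2, Relb, Ccl2, Cxcl1, Sod2, Icam1, Vcam1 and Traf1) was read beside Casp4. With TNF, 6 of the 10 were higher at 2-fold in control cells and 3 on the cKO-labelled arrays, and the list medians were 1.01 and 0.62. Between the labels with TNF, 4 were lower and 1 (Traf1) was higher, with a median of -0.85, while without TNF all 10 lay below 0 with a median of -0.12 and 0 passed 2-fold, the signs of Nfkb2 and Ccl2 turning with the scaling. Several of these genes lay near the limit, so that over the scalings tried the number higher with TNF was 4 to 8 in control cells and 3 to 4 on the cKO-labelled arrays. Between the labels with TNF, 4 to 5 were then lower and 0 to 1 higher. Nfkbia, the inhibitor that NF-κB induces against itself, had signals of 3.50 and 9.98 in control cells and 3.35 and 6.12 on the cKO-labelled arrays. Its TNF differences of 1.51 and 0.87 were near the 1.38 and 0.86 of Casp4. Of the 10 it was the nearest to Casp4 in these values, and others lay far from it. Ccl2 gave 5.02 and 3.17, Cxcl1 3.00 and 1.48, Traf1 1.01 and 2.13, and Sod2 0.42 and 0.11. Without TNF, however, Nfkbia differed between the labels by -0.06 and Casp4 by -0.58.

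Among 9663 genes with a symbol, well above background on all 4 arrays and outside patches, those whose 4 values lay nearest to the pattern of Casp4 were Gpr84, Tnfaip3 and Saa1, at distances of 0.36, 0.39 and 0.43 on the log2 scale. Gpr84, a receptor for medium-chain fatty acids on immune cells, had differences of 0.88 and 0.89 with TNF, and of -0.83 and -0.82 between the labels without and with TNF. Its spot was dim, with signals of 0.0913 and 0.168 in control cells and 0.0515 and 0.0952 on the cKO-labelled arrays. At that level the spread is about 0.24. Tnfaip3, a ubiquitin-editing inhibitor of NF-κB, had 1.78 and 0.51 with TNF and -0.08 and -1.35 between the labels. Saa1, an acute-phase protein, had 1.18 and 0.32, and -0.27 and -1.13. Of these, Gpr84 was the 1 gene that, like Casp4, differed by more than 0.5 between the labels without TNF. The genes were picked by nearness on these same 4 values, so their likeness to Casp4 is not separate evidence.

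**Figure D4:**
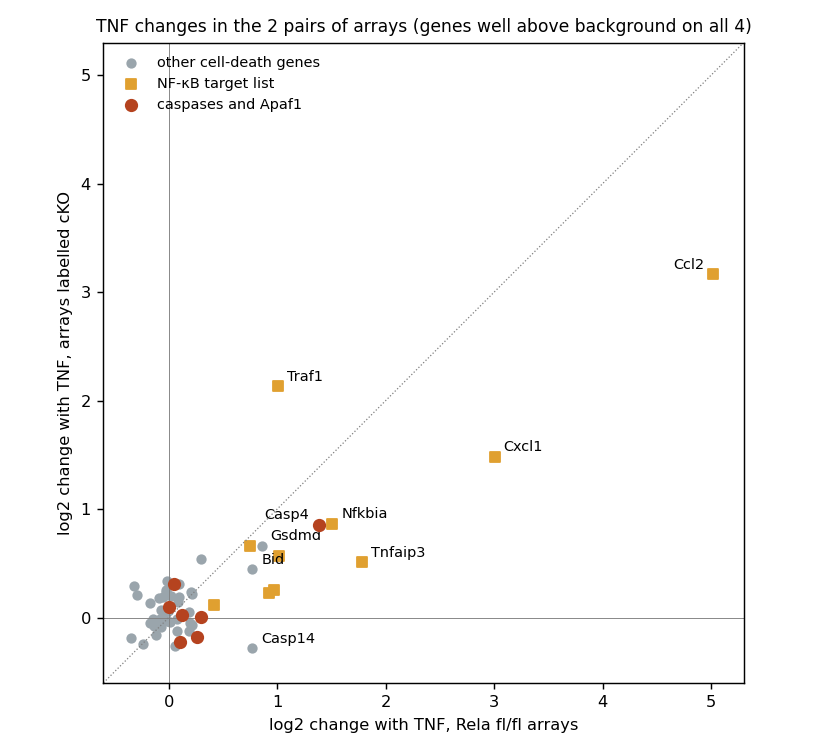
Log2 change with TNF in control cells (horizontal) and on the cKO-labelled arrays (vertical) for list genes and members that every array measured well above background, with a dotted line of equal change. Casp4 (1.38 and 0.86) lies beside Nfkbia (1.51 and 0.87), and the other 6 members lie below 1.5-fold on both axes.

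The rest of the cell-death machinery was read from lists of 46 further genes, of which 44 had a probe. In control cells, 0 of 41 tested were higher with TNF at 2-fold and 1 was lower. On the cKO-labelled arrays 0 of 40 were higher and 1 lower. Between the labels the counts were 0 higher and 1 lower of 41 without TNF, and 1 higher and 0 lower of 40 with TNF. Each of these counts was at most 1 gene, and the shares of all genes given above are their background. The list medians lay between 0.00 and 0.10 on the log2 scale, and between -0.06 and 0.29 over the scalings tried, under which each count was again 0 or 1.

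Casp14, a caspase of epidermal differentiation, had a dim spot with signals of 0.0906 and 0.154 in control cells and 0.111 and 0.0915 on the cKO-labelled arrays, a log2 difference of 0.77 with TNF in the former and of -0.75 between the labels with TNF, both resting on the array of control cells with TNF.

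Gsdmd, the pore-forming gasdermin that caspase-1 and caspase-11 cut, is carried in 10 spots. Their mean signal was 0.272 and 0.493 in control cells without and with TNF, and 0.259 and 0.411 on the cKO-labelled arrays. Both arrays with TNF lay above both arrays without it, with log2 differences of 0.86 and 0.66, and 2 and 1 of the 10 spots were in patches on the arrays without TNF. Between the labels Gsdmd differed by -0.07 without and -0.26 with TNF. Il1b, which encodes the interleukin-1β precursor and also has 10 spots, was well above background on none of the arrays. Il18, the other cytokine matured by caspase-1, had signals of 2.14 and 1.97 in control cells and 1.87 and 1.67 on the cKO-labelled arrays. Pycard, the inflammasome adaptor, had 1.54 and 1.40, then 1.55 and 1.47.

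Of the inflammasome sensors, Nlrp3 was lower with TNF on the cKO-labelled arrays by 1.06 at signals of 0.0857 and 0.0412, and by 0.82 to 1.17 over the scalings tried. Nlrp1b was well above background in untreated control cells alone, where its spot lay in a patch, and accounts for the 1 lower gene of the lists in each comparison with that array (bounds of -1.94 and -2.45), where it could only be lower. Gsdme, another pore-forming gasdermin, had signals of 1.17 and 0.933 in control cells and 1.58 and 1.93 on the cKO-labelled arrays. It was the gene of these lists that was higher at 2-fold between the labels with TNF, at 1.05, and 0.98 to 1.08 over the scalings tried.

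In the caspase-8 and necroptosis list, 0 of 10 genes passed 1.5-fold in any of the 4 comparisons, although Mlkl, the pore-forming effector of necroptosis, at 0.54 with TNF on the cKO-labelled arrays, reached 0.78 under another scaling. Ripk3, the kinase of necroptosis, had signals of 5.96 and 6.93 in control cells without and with TNF and of 7.46 and 8.69 on the cKO-labelled arrays. Its log2 differences were 0.22 and 0.22 with TNF, and 0.32 and 0.33 between the labels, each over 2 spreads. With TNF on the cKO-labelled arrays the value ran from 0.11 to 0.46 over the scalings tried, the lowest of which is under 2 spreads. Cflar, which encodes the inhibitor of caspase-8, had 0.583 and 0.668, then 0.656 and 0.635, with TNF differences of 0.20 and -0.05, the second of which turned sign with the scaling. Its other, dimmer probes gave 0.56 and -0.03, and 0.21 and -0.22, with TNF. Between the labels with TNF these probes gave -0.45 and -0.35 (spread 0.24), and the first probe gave -0.07. Bid, the caspase-8 substrate that links death receptors to mitochondria, had signals of 1.69 and 2.88 in control cells and 2.02 and 2.75 on the cKO-labelled arrays. Its TNF differences were 0.77 (spread 0.11) and 0.45 (spread 0.081). In the caspase-2 list, Pidd1 was higher by 0.61 on the cKO-labelled array without TNF, and among caspase substrates Vim was higher by 0.60 there, both just past 1.5-fold and short of it under another scaling (0.52 and 0.51). The 6 apoptosome and mitochondrial factors, Cycs, Diablo, Htra2, Aifm1, Endog and Xiap, were within 1.5-fold in every comparison.

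Cell-type markers moved between the arrays as well. All 10 chondrocyte markers were well above background everywhere, among them Col2a1, the collagen of cartilage, with signals of 584 to 610. On the cKO-labelled arrays the medians of the 10 were -0.71 without and -0.47 with TNF. Col2a1 differed by -0.03 and -0.01 with a sign that turned with the scaling, and the other 9 lay below control cells under every scaling tried. For the 10, summed signals were 1300 and 1331 against 1679 and 1590. The fibroblast-like markers summed to 782 and 809 on the cKO-labelled arrays and 904 and 951 in control cells. Casp1 and Casp4 are known from macrophages. Of 9 macrophage and leukocyte markers with a probe, 6 were well above background on all arrays and Ptprc, the common leukocyte antigen, on none. Their summed signals were 39.9 and 36.7 in control cells without and with TNF and 44.7 and 35.9 on the cKO-labelled arrays. These sums rest mostly on 1 of 3 probes of Itgam, an integrin of myeloid cells, at 31.8 to 40.4, which the other Itgam probes did not match (0.0405 to 0.0794, and 0.0726 to 0.552 with the highest in a patch). Without Itgam the sums were 4.77 and 4.32, then 4.35 and 4.17. The markers did not move 1 way. With TNF, 1 of the 8 measured on both arrays of control cells was higher and 1 lower at 2-fold, and on the cKO-labelled arrays 0 of 6 were higher and 1 lower. Between the labels, 1 of 6 measured on both arrays was higher and 1 (Lyz2) lower without TNF, with a median of 0.03, and 0 of 7 passed 2-fold with TNF, with a median of -0.05. Over the scalings tried, the lower genes were 1 to 2 with TNF in control cells and 0 to 1 between the labels with TNF. Laptm5, a lysosomal membrane protein of blood cells, had signals of 0.0690 and 0.196 in control cells, the second in a patch, a log2 difference of 1.51. It was not well above background on either cKO-labelled array, so that it entered the label comparisons only through control cells and could only be lower there (bounds of -1.41 without and -2.88 with TNF). The same holds without TNF for Tyrobp, an adaptor of myeloid receptors, with a bound of -1.61, and with TNF, where it was measured on both arrays, it differed by -0.56. Adgre1, a receptor of macrophages, was higher by 2.87 between the labels without TNF through a spot in a patch, and differed by -0.50 with TNF. Lyz2, a lysozyme of macrophages, was at 0.661, in a patch, and 0.247 in control cells and at 0.153 and 0.128 on the cKO-labelled arrays. Between the labels with TNF it differed by -0.94 (spread 0.24). In that comparison 6 of the 8 markers tested lay below 0 and 2 above, Laptm5 as a bound and some values near 0. Cd14, the lipopolysaccharide co-receptor, had log2 differences of 0.54 and 0.46 with TNF and of 0.31 and 0.23 between the labels without and with TNF. The part of these markers in the Casp4 and Casp1 differences was not tested. Fewer cells of a type and less RNA per cell cannot be told apart in such bulk samples.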

How the data were processed

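The authors deposited spot intensity values from Agilent Feature Extraction 10.10.1.1, already background-subtracted and detrended and carrying flags, and a table of scaled intensity values in which each array is multiplied by 1 factor (1.77 to 1.83). Here log2 processed intensity was centred on the 75th percentile of each array's 59305 transcript spots. Outlier spots (138 to 225) were left out, and 0 were saturated. All 4 arrays lay on 1 slide in 1 scan, so neither separates the groups. Repeated spots were averaged, and a gene was represented by its brightest probe on average. A gene was tested where the brighter array was well above background, and a dimmer signal below that mark was replaced by the lowest such signal of its array, which makes the difference a bound. It was called at a log2 difference of 1. With 1 array per group no p-values were computed, and the number of arrays limits precision. A spot is in a patch when 3 or more of 54 surrounding spots were bright on that array alone. Symbols came by accession from RefSeq GRCm38.p6 (20435 of 20809 NM accessions matched) and promoters from the same build, while the array files name another assembly, from which no coordinate is printed.

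The members, the gene lists, the patch rule and the alternatives were chosen with earlier results of these data known. Genes named are the members, Rela, list genes past a limit or with large differences, and the 3 genes nearest to the member of widest range. Others among them (Xist, Eif2s3y and the list genes of known role such as Il1b, Il18, Pycard, Ripk3, Cflar, Lyz2 and Col2a1) were named after values were seen. Some genes of the lists are not reported here by name. Alternatives were 4 other scalings, normexp background (offset 50, on the median intensity of the spot), 2 filters, 2 probe summaries, outlier spots kept, patches left out, and limits of 1.5-fold and 3-fold. The counting rule was tested on simulated data, made from copies of 1 array with added noise and large changes planted in spots well over the floor. That test covered neither patches, nor the larger spread of dim spots, nor bounds. Python 3.11.15 with numpy 2.4.6, pandas 2.3.3 and matplotlib 3.10.9, and R 4.3.3 with limma 3.58.1 were used.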

Additional observations from a re-analysis of the deposited data

Results flagged for a closer look

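Of 46 members and other cell-death genes well above background on all 4 arrays, 5 had TNF differences of opposite sign in control cells and on the cKO-labelled arrays, each larger than 1 spot spread. That is 10.9%, and of all 20482 genes measured on every array 9.05% met the same condition. The difference between the 2 responses was not tested, since each direction rests on 1 pair of arrays. Casp14 gave 0.77 in control cells and -0.28 on the cKO-labelled arrays, a difference of -1.05 on the log2 scale at dim signals. With median scaling its value on the cKO-labelled arrays was inside the spread of 0.23. Gsdme gave -0.32 and 0.29, a difference of 0.61, and Rbck1, a subunit of the linear ubiquitin ligase, gave -0.17 and 0.13, a difference of 0.31. Over the scalings tried, Rbck1 in control cells ran from -0.21 to -0.06, the last of which is under its spread of 0.081. Without scaling, its value on the cKO-labelled arrays was under the spread too. Endog gave -0.29 and 0.21, a difference of 0.50, with its spot in a patch in untreated control cells. Htra2 gave -0.09 and 0.18, a difference of 0.27, with its spot in a patch on the same array and a sign in control cells that turned with the scaling, and its other probe gave -0.01 and 0.15, short of the condition. None of the 8 members met this condition.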

How the results depend on the processing

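There were 13 alternatives to the main setting, and 11 settings, the main one among them, gave values of Casp4. Casp4 had 1 direction in each of the 4 comparisons under all 11. Its log2 difference with TNF was 1.26 to 1.498 in control cells and 0.75 to 1.09 on the cKO-labelled arrays. Between the labels it was -0.67 to -0.53 without TNF and -1.17 to -1.04 with TNF. The count of members past 2-fold with TNF in control cells went from 1 to 2 without the filter on dim spots, where Casp1 lay past it at 1.06, and to 0 at 3-fold. On the cKO-labelled arrays it went from 0 to 1 (Casp4) with median scaling and with the 1.5-fold limit. Between the labels with TNF it went from 2 to 1 with normexp, with both arrays well above background and with patches left out, Casp1 being the gene lost (-0.18 with normexp), and to 0 at 3-fold. Without TNF between the labels it was 0 throughout. Of 366 values of single members, 333 moved by less than the spot spread and 33 by more. Only a value past 2-fold could count as reversed, and 0 did. Several smaller values turned sign with the scaling, as given above. Median scaling moved the median of all genes to 0.12 and 0.29 with TNF in control cells and on the cKO-labelled arrays. In the latter, the 255 higher and 1110 lower genes became 491 and 874 with median scaling and 396 and 951 with quantile normalization. The counts over all genes were smaller with patches left out (114 higher and 137 lower with TNF in control cells, against 560 and 999) and larger without a filter (1346 and 2361), where the genes tested also differ. Dim spots limit Casp1, Casp12 and Apaf1 most. No paired analysis was possible because the groups share 1 replicate number, with 1 array each, and no replicate could be left out. An additive fit over the 4 arrays (label and TNF, 1 degree of freedom left) was not run.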
